A study of Caenorhabditis elegans with 2 samples.

Results

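The 81 protein-coding genes of Caenorhabditis elegans whose names begin with rpl-, rps- or rla- are named for the proteins of the cytosolic ribosome, which reads messenger RNA in the cytoplasm. They were picked out by name from 19985 protein-coding genes of the Ensembl annotation, of which 19973 are nuclear. The choice of this set was made with earlier results of these data known. There were 47 rpl genes for the large subunit, 31 rps genes for the small subunit and 3 rla genes for the acidic stalk of the large subunit. ChIP-seq (chromatin immunoprecipitation followed by sequencing) located AMA-1, the largest subunit of RNA polymerase II, at these genes. There was 1 group with 2 biological replicates. The worms were whole young adults of both sexes of strain YL503, unc-119(ed3) III, with the insertion vrIs110. Its construct joins the pie-1 promoter, which is active in the germline, to AMA-1 with a C-terminal GFP and FLAG tag, the AMA-1 3′UTR and unc-119(+), so the tagged protein is driven by a germline promoter. Per the labels the antibody was directed at ama-1, and they do not say whether the tagged protein, the worm's own AMA-1 or both were bound. Since whole worms were used, more polymerase per cell and more cells with polymerase at a gene cannot be told apart. There is no second condition, so no test between groups was possible and no p-value is given.

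Ribosomal protein genes are transcribed by RNA polymerase II and are among the most strongly expressed genes of growing cells. Polymerase that has passed the poly(A) site of a gene goes on transcribing for a stretch before it is released, and it is known to dwell there at many genes. Most worm transcripts have their 5′ end replaced by a spliced leader, so an annotated gene start often marks the leader's splice site and transcription can begin upstream of it.

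The deposited peak lists on the ce11 assembly give each peak a summit and a signal. The signal was computed by the authors and serves here to rank peaks within 1 list. Pooled reads gave 30000 relaxed peaks, replicate 1 gave 30000 and replicate 2 gave 27106, background included. The 732 pooled peaks of highest signal, 27.5 and above, are those the authors kept in their thresholded list, and 706 of them are nuclear. The nuclear median signal was 6.89 pooled (4.75 in replicate 1 and 3.61 in replicate 2). Read numbers were not among the values analysed here, and library depth is therefore unknown. For each gene the highest signal was read within 500 bp either side of the annotated start and of the annotated end, both cut at the gene's midpoint, and in the body between these windows. A window with no summit was given 0. The ribosomal protein genes are short, from 276 to 1734 bp with a median of 754 bp against 2027 bp for all nuclear protein-coding genes, and only 17 were long enough to have a body.

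AMA-1 summits were found within 500 bp of the ends of nearly all ribosomal protein genes, and 40 of 81 genes reached the authors' threshold there. In the pooled list 77 of 81 genes (95.1%) had a summit at the end, against 35.8% of nuclear protein-coding genes. At the start 70 of 81 (86.4%) had one, against 31.5%. Among the 732 peaks of highest signal, the ends of 40 ribosomal protein genes (49.4%) held a peak, against 2.92% of all genes. The starts of 13 (16.0%) did so, against 1.25%. In the body 4 of the 17 genes with one had a summit (23.5%), against 34.5% of all genes with a body, or 28.2% of all genes. No body summit reached the 732 highest, against 0.616% of all genes. The bodies of these short genes are short too, and genes of like length were not compared for body summits. Each replicate was also ranked by itself, and in both more genes had a summit at the end than at the start. Since only 17 genes have a body, the low body counts were largely set by the windows. In replicate 1, 77 genes had a summit at the end (against 36.5% of all genes) and 45 were among its 732 highest (against 3.04% of all genes). In replicate 2, 75 had a summit at the end (against 34.5% of all genes) and 24 were among its 732 highest (against 2.47% of all genes). In the body 2 genes had a summit in replicate 1 (against 37.0% of all genes with a body, or 30.2% of all genes) and 5 in replicate 2 (against 35.4% or 28.9%). None of these was among the 732 highest of replicate 1 (against 0.596% of all genes) or replicate 2 (against 0.776%). A start summit was listed at 61 genes in replicate 1 (against 31.4% of all genes) and at 66 in replicate 2 (against 30.3%). At the start, 10 genes were among the 732 highest of replicate 1 (against 1.27% of all genes) and 7 among those of replicate 2 (against 1.16% of all genes). Each pooled summit was then given only to the gene whose start or end is nearest. At the end, 17 ribosomal protein genes were then at the level of the 732 highest (against 1.81% of all genes). By the same rule 55 of 81 kept an end summit of any signal, and 55 a start summit. The share over all genes was not computed for these counts.

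**Figure D1:**
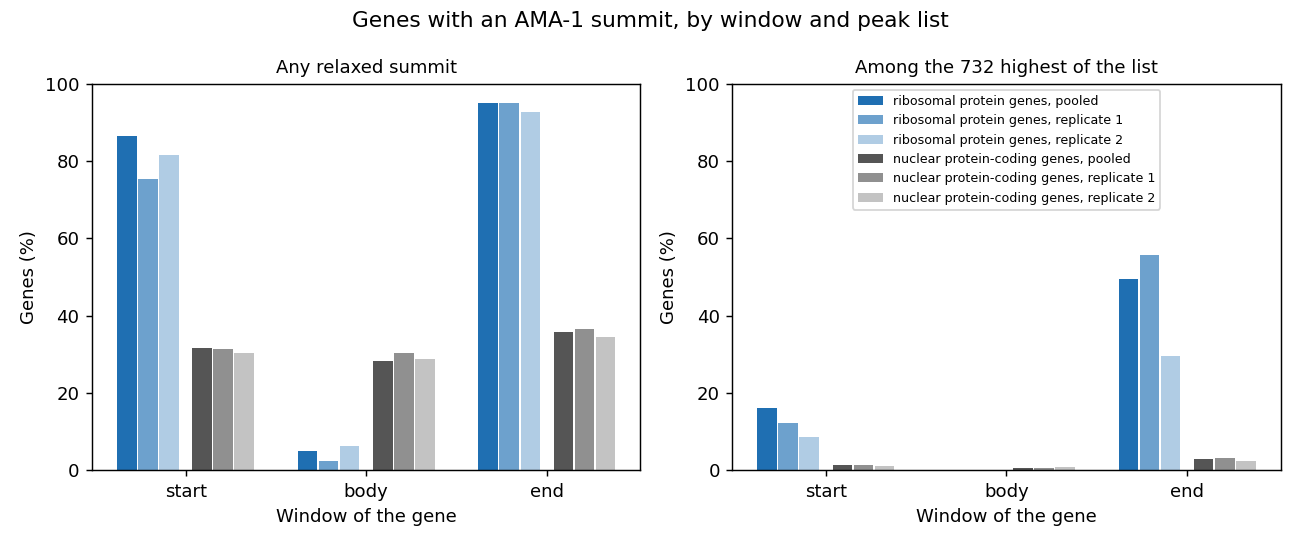
Percentage of genes with an AMA-1 summit at the start, in the body and at the end, for the 81 ribosomal protein genes (blue) beside the 19973 nuclear protein-coding genes (grey), in the pooled, replicate 1 and replicate 2 lists. Any relaxed summit is on the left and peaks among the 732 highest of each list on the right, where the blue bars at the end stand at 49.4%, 55.6% and 29.6%. Only 17 ribosomal protein genes have a body.

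The short length of these genes was looked at directly. Of 64 ribosomal protein genes too short to have a body, 61 (95.3%) had an end summit, against 28.3% of the 3667 nuclear protein-coding genes that short. Of the same 64, 31 (48.4%) were among the 732 highest at the end, against 2.84% of the short genes. Of the 17 longer ones, 9 were. The median end signal was 25.9 in the short ones and 35.9 in the long ones, and their median start signals were 13.4 and 12.3.

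The end carried the higher signal in most of these genes. Over all 81, the median pooled signal was 26.4 at the end and 13.3 at the start, and over all nuclear protein-coding genes both medians were 0. An end signal at or above 26.4 was found in 3.24% of all genes. The end was higher than the start in 65 of 81 genes (80.2%), against 27.2% of all genes. Counting only genes with a summit at either window, it was 65 of 78 (83.3%), against 58.9% of 9225 genes. The start was higher in 13 genes (16.0%), against 19% of all genes. In replicate 1 it was higher in 15 (18.5%, against 20.2%). In replicate 2 it was higher in 26 (32.1%, against 21.3%), a share above that of all genes. The end was higher in 63 genes in replicate 1 (77.8%, against 28.6% of all genes) and in 53 in replicate 2 (65.4%, against 27.6%). Of genes with a summit at either window, this was 80.8% against 58.6% of all such genes in replicate 1, and 67.1% against 56.4% in replicate 2. It was higher in both replicates in 43 genes (53.1%, against 14.2%). In 40 genes (49.4%) the pooled end signal was over 2 times the start signal, against 20.2% of all genes. With each summit given only to its nearest gene, the pooled end was higher in 43 genes (53.1%), against 21.4% of all genes. Genes with no summit count as not higher in these shares. Under this rule the shares among genes with a summit were not computed, so whether the excess holds there is not known.

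**Figure D2:**
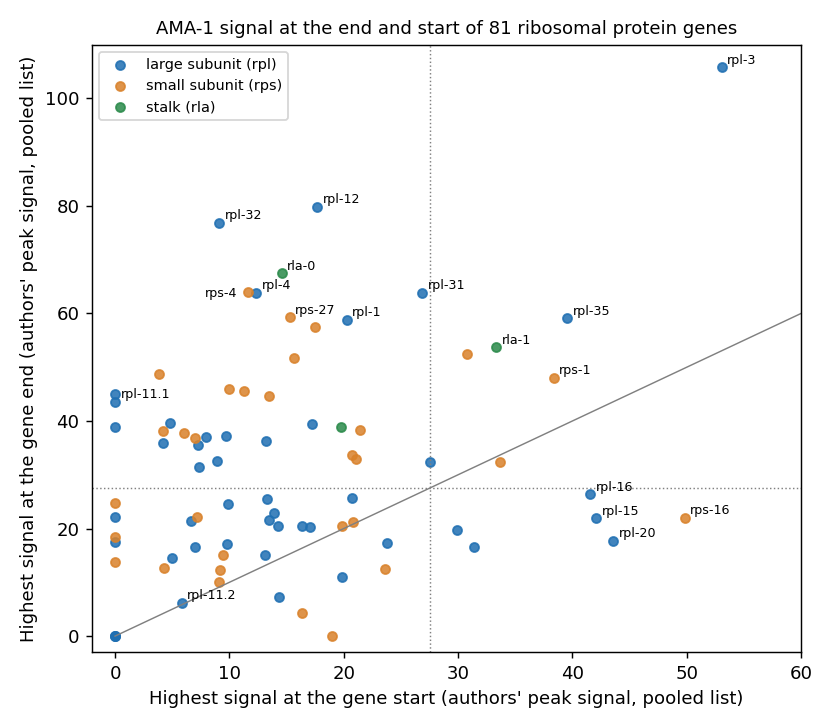
Highest pooled AMA-1 signal at the gene end against that at the gene start for each of the 81 ribosomal protein genes, coloured by family. The solid line marks equal signals and the dotted lines the threshold of 27.5. 65 genes lie above the solid line and 13 below it, with rpl-3 highest on both axes.

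Among genes of the large subunit, rpl-3 held the highest signal at both its end and its start. It encodes a core protein near the site where peptide bonds form. On chromosome III, plus strand, at 3867854 to 3869587 of ce11, its end peak at 3869543 to 3869694 was at 106 pooled (77.7 in replicate 1 and 20.5 in replicate 2). The summit lay 4 bp past the end, had rank 4 of 29972 nuclear peaks, and stood 1 bp from the end of tir-1, which faces it on the other strand. Its start signal was 53.1 (43.3 in replicate 1 and 16.3 in replicate 2), with the summit at -256 bp from the start, upstream of it. It also had a body summit of 21.5, and all 3 positions were listed in each replicate.

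Other large subunit genes followed at their ends. For rpl-12, a gene of the stalk base, the end signal was 79.8 pooled (46.4 in replicate 1 and 33.8 in replicate 2), with the pooled summit at -23 bp from the end, just inside the gene. For rpl-32 it was 76.9 pooled (73.8 in replicate 1 and 12.1 in replicate 2). The replicates ranked them differently: rpl-12 was at rank 43 in replicate 1 and 15 in replicate 2, and rpl-32 at rank 6 and 710. For rpl-4, whose product lines part of the exit tunnel, the pooled signal was 63.9 (61.4 and 12.9 in replicates 1 and 2), and for rpl-31, a protein of the tunnel's rim, 63.8 (45.98 and 23.6). For rpl-35 it was 59.1 (58.1 and 10.4) and for rpl-1, the protein of the L1 stalk, 58.8 (49.5 and 9.98). With rpl-3, all 7 had an end summit in each replicate. Of the 47 large subunit genes, 20 were among the 732 highest pooled peaks at the end and 8 at the start, with median signals of 24.7 at the end and 13.1 at the start.

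Small subunit genes reached similar levels without a single gene as high as rpl-3. For rps-4 the end signal was 64.0 pooled (43.5 in replicate 1 and 19.1 in replicate 2). For rps-27 it was 59.3 pooled (34.8 in replicate 1 and 13.3 in replicate 2). For rps-25 it was 57.6 pooled (31.7 in replicate 1 and 24.13 in replicate 2). In each of these the summit lay past the end, by 64, 163 and 120 bp. The next were rps-13 (52.5), rps-17 (51.6) and rps-7 (48.8), whose summits lay 103, 196 and 91 bp past their ends. Of the 31 small subunit genes, 17 were among the 732 highest at the end and 4 at the start, with median signals of 32.9 at the end and 13.4 at the start. No test of the difference between subunits was made.

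The stalk genes encode the P proteins, which draw elongation factors to the ribosome. All 3 were among the 732 highest pooled peaks at the end. For rla-0 the end signal was 67.5 pooled (61.6 in replicate 1 and 9.10 in replicate 2), and the summit lies inside the snoRNA gene F25H2.14 and 107 bp from the start of tct-1. For rla-1 it was 53.7 in the pooled list and 43.9 in replicate 1, and no end summit was listed in replicate 2. In replicate 2 rla-1, a gene of 490 bp, had a signal of 28.7 in its start window, 180 bp inside the gene. That peak ranked 33rd among 27078 nuclear peaks. The start window of rla-1 also held a signal of 33.3 in the pooled list and 17.7 in replicate 1. For rla-2 the end signal was 38.8 pooled (32.2 in replicate 1 and 4.01 in replicate 2). Their ends ranked high in replicate 1, and none of them was among the 732 highest of replicate 2 at the end.

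End summits lay past the annotated end in most genes. The median was 112 bp past the end over 77 genes in the pooled list, with quartiles of 51 and 157 bp, and 24 genes fell in the single bin from 100 to 150 bp. In the pooled list 61 of 77 summits (79.2%) were 1 to 250 bp past the end, against 41.8% of the 7160 nuclear protein-coding genes with an end summit. Among genes at the level of the 732 highest, it was 38 of 40 (95.0%), against 60.1% of 584 genes. The median distance was also 112 bp in replicate 1, with quartiles of 61 and 172 bp, and 13 of 77 summits at or before the end. In replicate 2 it was 80 bp, with quartiles of 6.5 and 128 bp, and 18 of 75 at or before the end. Summits of the same gene were a median of 139 bp apart between replicates, so the distance of a single gene was not closely repeated. The share 1 to 250 bp past the end was 71.4% in replicate 1 (against 38.4% of all genes with an end summit) and 61.3% in replicate 2 (against 36.8%). Windows were cut at the gene's midpoint, so these short genes have less room for a summit inside the gene than most genes. That by itself can raise the share past the end, and genes of like length were not compared for position.

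**Figure D3:**
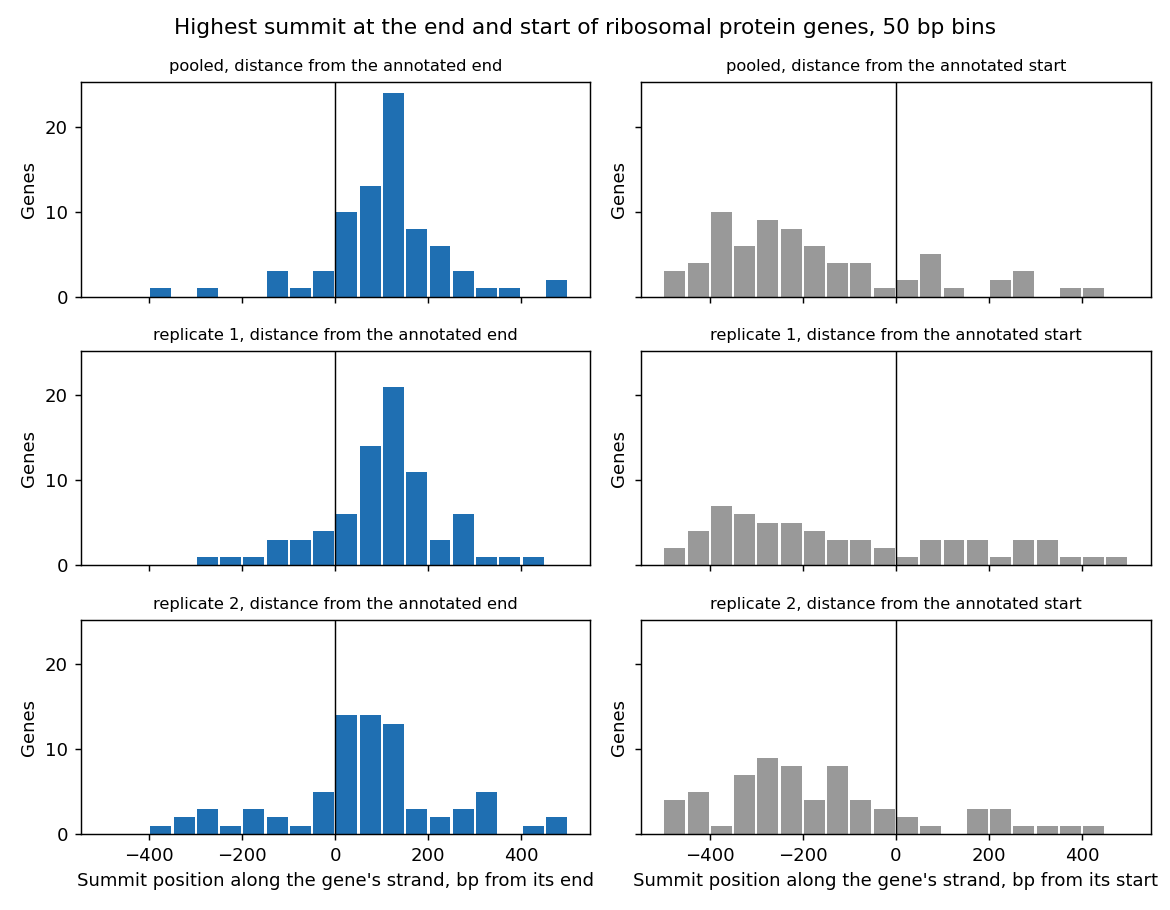
Number of ribosomal protein genes by the position of the highest summit at the annotated end (left, blue) and start (right, grey), in bins of 50 bp along the gene's strand, for the pooled, replicate 1 and replicate 2 lists. Positive values are downstream. The pooled end summits gather from 0 to 250 bp past the end, and the pooled start summits lie mostly upstream, with a median of -213 bp.

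Start summits lay upstream of the annotated start in most genes. In the pooled list 55 of 70 (78.6%) were before the start, against 58.9% of the 6288 nuclear protein-coding genes with a start summit, and 43 of them were 100 to 400 bp before it. The median position was -213 bp from the start, against -65 bp for all genes. It was -188 bp in replicate 1 and -208.5 bp in replicate 2. Upstream summits made up 67.2% in replicate 1 (against 56% of all genes with a start summit) and 80.3% in replicate 2 (against 57.7%). Of the 70 pooled start summits, 51 were within 500 bp of another protein-coding start or end, and 26 were nearer to that than to their own start. Only 16 stood alone, so many upstream summits cannot be assigned to the gene itself. The cut at the midpoint also leaves short genes less room inside the gene, and genes of like length were not compared for position.

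**Figure D4:**
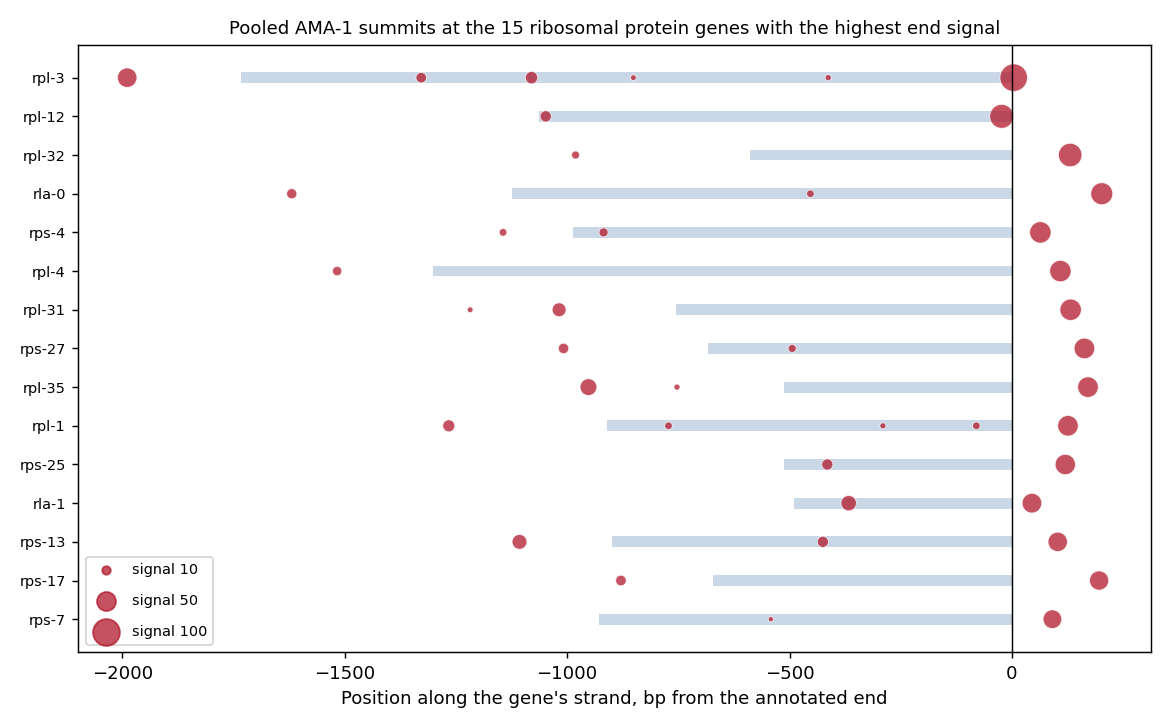
Pooled AMA-1 summits (red, area in proportion to signal) at the 15 ribosomal protein genes with the highest end signal, drawn along each gene's strand and aligned at the annotated end, with the gene as a pale bar. In 14 of the 15 the largest point lies just past the end, from 4 to 202 bp, and in rpl-12 it is at -23 bp.

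Of the 8 genes with the highest start signals, rpl-3 and rpl-35 were also among the 15 highest at the end. After rpl-3 came rps-16, with a start signal of 49.8 pooled (46.4 in replicate 1 and 14.4 in replicate 2), against an end signal of 22.0. Its start summit lies 36 bp from the end of fib-1, the fibrillarin gene, on the same strand, and the same peak is the end peak of fib-1. For rpl-20 the start signal was 43.6 (20.7 and 17.7 in replicates 1 and 2), for rpl-15 it was 42.1 (24.5 and 17.8), and for rpl-16 it was 41.6 (36.2 and 11.5). Of the 81 genes, rps-16, rpl-20, rpl-15 and rpl-16 were the only 4 whose start was above the end in all 3 lists. At rpl-35 the start signal was 39.6 and at rps-1 it was 38.4, and both were higher at the end (59.1 and 48.0). The start summit of rps-1 was listed in replicate 1 (28.3) and not in replicate 2, and that of rpl-35 in both (26.6 and 13.5). At rps-19 start and end were nearly level, at 33.7 and 32.4. Of the 13 genes above the threshold at the start, 7 were also above it at the end.

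The bases directly before the start are shown for the 6 genes with the highest start signals, because an acceptor there bears on what the annotated start marks. They come from the RefSeq sequence of WBcel235, the assembly that ce11 names, read 5′ to 3′ on the gene's strand, with TTTCAG, letters of the worm splice acceptor, in capitals.
rpl-3 (chrIII:3867824-3867853, plus strand): taattttttcgtaaaattaatattTTTCAG
rps-16 (chrV:15000542-15000571, minus strand): ttttgttctttgtttaatatattattacag
rpl-20 (chrIV:4749779-4749808, minus strand): cattccttgcatcatatttttgttTTTCAG
rpl-15 (chrIV:654577-654606, minus strand): atctcgttattctaaccttttttcTTTCAG
rpl-16 (chrIII:3503605-3503634, minus strand): ctttccccttcttatcagtatttaTTTCAG
rpl-35 (chrIII:7855104-7855133, plus strand): ttataatttttaagcaatctcattattcag
On the sense strand TTTCAG was present in the 30 bases before the start of 41 of 81 ribosomal protein genes (50.6%), against 15.8% of nuclear protein-coding genes, and in 40 of them it touched the annotated start. On the other strand it was present in 1.23% and 1.90%. The shorter CAG, which TTTCAG contains, stood directly before the start of 64 genes (79.0%), against 22.1% of all genes. The annotated start of many ribosomal protein genes thus directly follows the letters of a splice acceptor, and the median start summit lies further upstream. A match to these letters is a description of the sequence only. The median start signal was 17.1 in genes with TTTCAG and 9.51 in those without.

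The last 30 bases of the annotated gene, where a poly(A) signal would be looked for, are shown for 6 of the 9 genes with the highest end signals (rla-0, rpl-4 and rpl-31 are not shown). The pooled end summit lies past these bases in 5 of the 6, and within them in rpl-12. AATAAA, the canonical poly(A) signal, is in capitals.
rpl-3 (chrIII:3869558-3869587, plus strand): atctgaaggactatgctgcttgtattgaag
rpl-12 (chrIV:13239587-13239616, minus strand): tatctcAATAAAtcatgcaagacgtctaat
rpl-32 (chrII:9056497-9056526, minus strand): gatcttgttataaacttgttttgaaaaacg
rps-4 (chrIV:7083696-7083725, minus strand): tttgttgaaaAATAAAattgttaatctaaa
rps-27 (chrV:103394-103423, minus strand): ttttggttgaaagaaaaacaatgtgatttt
rpl-35 (chrIII:7855617-7855646, plus strand): gttcaatttcaatgaaaattgttgcttatg
AATAAA was found on the sense strand in these 30 bases in 35 of 81 genes (43.2%), against 45.5% of nuclear protein-coding genes, so the share was close to that of all genes. On the other strand it was found in 3.70% and 7.72%. The median end signal was 25.5 in genes with AATAAA and 32.3 in the 46 without.

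In both numbered pairs with a member on the X chromosome, that member had the lower end signal. The gene rpl-11.1 on chromosome V encodes a protein that joins the 5S RNA to the large subunit, and its end signal was 43.5 pooled (33.3 in replicate 1 and 9.87 in replicate 2). Its paralogue rpl-11.2 on X had an end signal of 6.19 in the pooled list and 5.47 in replicate 1, and no end summit in replicate 2. For rpl-25.2, on an autosome, the end signal was 22.1 pooled (19.2 in replicate 1 and 10.7 in replicate 2). Its paralogue rpl-25.1 on X had no summit in any window of any of the 3 lists. These are the 2 ribosomal protein genes on the X chromosome, and at the end both were below their autosomal paralogue in every list, a comparison of 2 pairs with no test. The starts did not all follow this order. At the start rpl-11.2 had 5.83 pooled and 5.24 in replicate 2, and rpl-11.1 had a summit only in replicate 1 (5.57), where rpl-11.2 had none. The start of rpl-25.2 had a summit only in replicate 2 (2.04).

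The other pairs lie on autosomes. For rpl-24.1 the end signal was 25.7 pooled (2.36 in replicate 1 and 9.90 in replicate 2). For rpl-24.2, whose human relative is a factor of ribosome assembly rather than a part of the mature ribosome, it was 11.0 pooled (7.68 in replicate 1 and 4.71 in replicate 2). The order of this pair at the end was reversed in replicate 1. The neighbouring genes rpl-41.1 and rpl-41.2, for a very small protein, had pooled end signals of 7.32 and 31.4, and the peak of 7.32 lies between them and was also the start peak of rpl-41.2. The genes rpl-7 and rpl-7A, which share a number but encode different proteins, had pooled end signals of 37.0 and 35.9. Likewise rpl-36 and rpl-36.A had 45.1 and 38.8, neither with a pooled start summit.

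A few ribosomal protein genes carried little or no signal. No summit was listed in the pooled list at rpl-25.1, rpl-37 and rpl-42, 3 of 81 genes (3.70%), against 48.2% of all genes. At rpl-37, a gene of 276 bp on chromosome III, none was listed in either replicate. At rpl-42 replicate 2 listed signals of 3.05 at the end and 2.72 at the start, and replicate 1 listed none. At rps-28 the pooled list held a start summit of 18.995 and none at the end, where replicate 1 listed a signal of 3.68 and replicate 2 one of 5.58. The genes nearest to the threshold of 27.5 at the end were rpl-41.2, rpl-14 (32.3) and rps-19 above it, and rpl-16 (26.4), rpl-24.1 and rpl-18 (25.5) below it. Reads that match more than 1 place can be lost or misplaced at near-identical copies, and the sources used here do not say how the authors handled them.

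With windows of 500 bp, pooled body summits lay in rpl-3 (21.5), rpl-7 (15.6), rpl-19 (11.8) and rps-3 (6.55). Their number depended on the window: 31 genes had one with windows of 250 bp and 0 with windows of 1000 bp. The share over all genes was not computed for these windows. At rpl-7 the body signal was 16.0 in replicate 1 and 2.35 in replicate 2. At rps-3 and rpl-19 no body summit was listed in replicate 1.

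The replicates overlapped in which genes had a summit at the end, and less in how these ranked. Both replicates listed an end summit at 73 of 81 genes (90.1%), against 22.1% of all genes, and a start summit at 51 (63.0%), against 16.4%. At the end 19 genes were among the 732 highest of both replicates (23.5%), against 1.10% of all genes. Across the 81 genes Spearman's rho between the replicates' end signals was 0.51, and between their start signals 0.435. These values are descriptions across genes, which are not independent and share the 2 libraries. Of the 10 genes with the highest end signal in each replicate, 3 were the same. The summits of the 73 genes were a median of 139 bp apart between replicates, 42 of them within 150 bp and 10 within 50 bp.

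**Figure D5:**
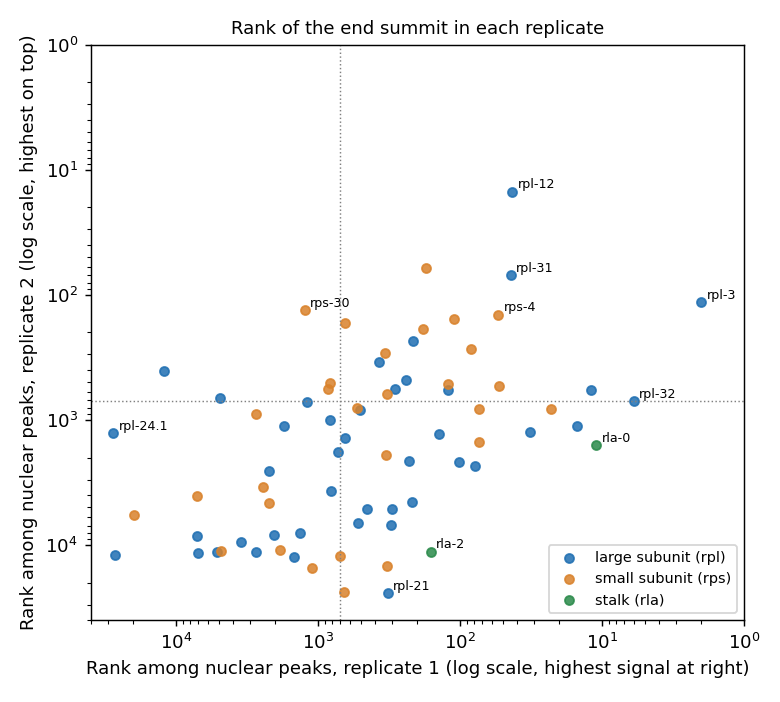
Rank of the highest end summit among the nuclear peaks of replicate 2 against its rank in replicate 1, on log axes with the highest signals at top right, for the 73 ribosomal protein genes with one in both, coloured by family. Dotted lines mark the nuclear part of the 732 highest peaks of each replicate, and 19 genes lie at the top right of both. Some genes high in replicate 1 are far lower in replicate 2, such as rla-2 and rpl-21.

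Most end summits had another gene close by. Of the 40 at the level of the 732 highest, 35 were within 500 bp of the start or end of another protein-coding gene, and 23 were nearer to that than to their own end. Of the same 40, 6 were within 500 bp of a small non-coding gene, and 1 of these within 100 bp, at rla-0. When each summit was given only to the gene with the nearest start or end, 17 of 81 ribosomal protein genes (21.0%) remained at this level at the end, against 1.81% of all genes, and 7 (8.64%) at the start, against 0.721%. Without summits within 500 bp of small non-coding genes, 34 (42.0%) were at this level at the end, against 2.50% of all genes, and 12 (14.8%) at the start, against 1.03%.

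For 5 genes the end summit stood alone, with no other protein-coding start or end and no small non-coding gene within 500 bp. At rpl-31 (63.8) the summit was 132 bp past the end and the nearest other protein-coding boundary 1192 bp away. At rps-27 (59.3) it was 163 bp past the end, with 1594 bp to the nearest. At rps-6, whose product is the classic substrate of S6 kinase, the signal was 44.7 (38.5 and 11.5 in replicates 1 and 2) at 152 bp past the end. For rps-8 it was 38.3 (25.8 and 8.57) and for rpl-21 it was 32.6 (25.998 and 2.26). The median of these 5 was 44.7, and that of the other 35 above the threshold was 43.5. Over all 77 end summits, whatever their signal, the 11 that stood alone had a median of 17.2 and the 66 with a neighbour 32.3. Where a neighbour is that close, signal of the gene's own end and of the neighbour cannot be told apart. At the starts, 2 of the 13 genes at this level, rpl-15 and rpl-35, had no such neighbour, and 6 start summits were nearer to another gene's start or end than to their own.

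End signals were also set against the orientation of the gene that follows. In 40 ribosomal protein genes the next protein-coding gene lies on the same strand, a median of 128.5 bp on, and their median end signal was 33.3, with 22 at the level of the 732 highest. In 26 the next gene faces them, and their median was 26.8, with 13 at that level. In the other 15 another gene overlaps the end, and their median was 20.5, with 5 at that level. All 3 groups ran from 0 upwards, to 79.8, 105.8 and 76.9, so they overlapped throughout.

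Ribosomal protein genes of many animals carry snoRNA genes, which guide the modification of ribosomal RNA, in their introns. Here 14 of 81 (17.3%) held a small non-coding gene within their bounds, against 2.70% of nuclear protein-coding genes, and 19 of the 21 such genes were snoRNA genes. rpl-6 held 3 of them, and rpl-15, rpl-7A, rps-12 and rps-29 held a pair each. The median end signal was 34.4 in the 14 hosts, 8 of them at the level of the 732 highest, and 25.5 in the 67 others, 32 of them at that level. Whether these genes add to the signal of their hosts was not tested.

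Other genes of translation were measured in the same way. Of 41 translation factor genes found, 10 were among the 732 highest pooled peaks at the end and 2 at the start, with median signals of 14.8 and 9.68. The highest were eef-1G (71.2), tct-1 (67.0), eef-2 (63.7) and eef-1A.1 (53.8), all but tct-1 subunits or forms of elongation factors. The start peak of tct-1 is the end peak of rla-0, at 67.5. Of 25 ribosome biogenesis genes found, 5 were at this level at the end and none at the start. Their median signals were 11.6 and 8.82, led by fib-1 (49.8) and nol-58 (37.8). Among the 732 highest of each replicate, 7 biogenesis genes were found at the end in replicate 1 and 1 in replicate 2, and 4 and 1 at the start. Of the 41 translation factors, 10 were found at the end in each replicate and 1 at the start in each. Of the 81 ribosomal protein genes, 45 (55.6%) were found at the end in replicate 1 and 24 (29.6%) in replicate 2. Of 70 genes for mitochondrial ribosomal proteins, 1 was at the pooled level at the end, mrpl-40 (51.0), and 3 at the start. Their median signals were 10.5 and 9.04. The end was higher than the start in 24 of the 41 translation factors, 14 of the 25 biogenesis genes and 32 of the 70 mitochondrial ribosomal protein genes. These lists are set beside the ribosomal protein genes as values, and the difference was not tested.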

How the data were processed

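ChIP-seq peak lists of 2 replicates of 1 group were used. Per the deposited file lists, the authors made relaxed ce11 lists from each replicate and from both together, with a control library, and a thresholded list from these by the irreproducible discovery rate. Aligner and peak caller: not given in the sources used here. The signal of each peak is the authors' own deposited value in column 7. Replicate 1 and replicate 2 signals are on scales of their own, so ranks were compared within a list. The ce10 lists were not used, since the annotation is of WBcel235 (Ensembl release 115). Genes were matched by name, and gene ends are those of the annotated gene record. Python 3.11.15, numpy 2.4.6, pandas 2.3.3, scipy 1.17.1 and matplotlib 3.10.9 were used. Window assignment was tested on simulated summits in genes long enough to have a body, where the cut at the midpoint does not act. The cut, which applies to the 64 ribosomal protein genes without a body, was not tested that way. Depth is unknown, so no interval is given, and genes are not replicates.

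The genes and lists were chosen with earlier results of these data known, as were the windows. Values are named for the 15 highest ends, 8 highest starts, 4 highest bodies, stalk genes, numbered paralogues, genes without a summit and 3 genes either side of the threshold at the end. rps-6, rps-8, rpl-21, rpl-36, rpl-36.A, rps-28 and the hosts of snoRNA genes were added after values were seen, as were both splice acceptor searches. Small non-coding genes are tRNA, rRNA, snRNA (which here includes spliced leader RNA), snoRNA and miRNA genes. Other settings were windows of 250 and 1000 bp, windows not cut, nearest gene only, no summits near small genes, each replicate alone, and a stricter and a looser floor (the 3000 highest peaks).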

Additional observations from a re-analysis of the deposited data

How the results depend on the processing

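Of 62 recomputed counts, 47 stayed within 1.5 times the reported one. Some had little room to move: counts already near 81 could not rise by that much. The count of 0 bodies among the 732 highest moved only with the looser floor. The fall from 77 to 55 genes with an end summit, nearest gene only, is within this ratio. A window of 250 bp gave 45 genes with a start summit, 31 with a body summit and 5 at the level of the 732 highest at the start, and a window of 1000 bp left 0 with a body summit. With summits given only to the nearest gene, 7 starts and 17 ends were at that level, and 43 genes were higher at the end than at the start. A floor at the middle rank of the thresholded list gave 7 starts. The 3000 highest gave 33 starts, 2 bodies and 65 ends. For the changed windows and floors the share over all genes was not computed, so whether the excess over all genes holds there is not known. With either replicate alone, body summits numbered 2 to 5, starts at that level 7 to 10 and ends 24 to 45, the lower end value being replicate 2 by itself. By construction a smaller window at the start leaves a larger body. CAG in place of TTTCAG before the start raised 41 genes to 64. No paired analysis was possible because there is only 1 group. The depth of the libraries is unknown, so whether genes without a summit lacked polymerase or reads cannot be told apart.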

Other observations

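Peaks listed for more than 1 ribosomal protein gene numbered 3 in the pooled list. The peak of 20.8 on chromosome I at 4584737 to 4585040 was the start peak of both rpl-24.1 and rps-10. The peak of 6.98 on chromosome V at 7776032 to 7776335 was shared by rpl-39 and rps-30. The third is the peak of 7.32 between rpl-41.1 and rpl-41.2. Across the 81 genes Spearman's rho of gene length and pooled end signal was 0.20, and that of start and end signals was 0.19, both descriptions across genes that share the same libraries.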
